A study of Mus musculus with 4 samples.

Results

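Inhibitory neurons were followed through 9 marker genes, Gad1, Gad2, Slc32a1, Pvalb, Sst, Npy, Vip, Crh and Calb1, taken by symbol from the 19090 genes of the count matrix. All 9 had a mean level of at least 5 CPM (UMIs scaled to a section total of 1000000), as did 11033 genes in all. A UMI is a molecular tag that stands for 1 captured transcript. Levels are compared for a gene between samples and not between genes.

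Inhibitory neurons release GABA, which is made from glutamate by the glutamate decarboxylases that Gad1 and Gad2 encode and is loaded into vesicles by the transporter encoded by Slc32a1. In the cortex these cells fall into classes that are told apart by calcium-binding proteins and peptides. Pvalb marks fast-spiking cells that contact cell bodies, Sst marks cells that contact dendrites, and Vip marks cells that mainly contact other inhibitory neurons. Npy, Crh and Calb1 cut across these classes, and Calb1 and Crh are also made by cells that are not inhibitory.

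Spatial expression was measured with Visium, in which barcoded spots capture RNA from the tissue above them, and a spot may cover more than 1 cell. Male mice were used at 9 months of age. Each of 4 genotypes gave 1 hemisphere section of 10 µm, from the stretch of bregma 1 to -2 mm. The wild-type section was from C57BL/6J. Dp16 mice carry a duplicated segment of mouse chromosome 16 that matches much of human chromosome 21. In 5xFAD mice the neuronal Thy1 promoter drives mutant human transgenes of inherited Alzheimer's disease, and amyloid plaques form. The 5xFAD-Dp16 animal carried both. The sections held 2721 (wild-type), 2540 (Dp16), 2347 (5xFAD) and 2941 (5xFAD-Dp16) spots, with 26049860 to 36461389 UMIs each. Plaque marks were on 324 spots of the 5xFAD section and 396 of the 5xFAD-Dp16 section.

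With 1 section per genotype there was no replicate check, no test between genotypes was possible, and animal, section and genotype cannot be told apart. Every interval is at 95% and covers counting error only. In spots, fewer cells of a type and less RNA per cell cannot be told apart. The planes of the sections differed: a list of 10 hypothalamic peptide genes summed to 2381 CPM in the wild-type section and to 82.3 to 168 CPM in the other sections, and a list of 5 thalamic genes summed to 560 CPM against 231 to 345 CPM. Choroid plexus genes summed to 6863 CPM in the wild-type section and to 14691 to 32418 CPM in the others. Their part in the differences between whole sections was not tested.

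None of the 9 genes lies in the duplicated segment. Sst is on the same chromosome, at chr16:23889573-23891342 in GRCm38.p6, far from the interval between Lipi (from 75540514) and Zbtb21 (to 97962627), the genes taken as its ends. RefSeq promoter windows were matched for 7 of the 9 genes. The 100 bases before the start site are shown for 3 peptide genes. Sst is shown for its neocortical difference between sections, described below, and Vip and Npy are peptide genes with which it can be compared. Capitals mark TGACGTCA (the cyclic AMP response element), its shorter core TGACG, and TATAAA (the TATA box), searched on both strands.
Sst, chr16:23890845-23890944, minus strand: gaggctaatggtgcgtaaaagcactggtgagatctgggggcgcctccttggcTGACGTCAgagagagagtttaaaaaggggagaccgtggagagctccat
Vip, chr10:5639118-5639217, plus strand: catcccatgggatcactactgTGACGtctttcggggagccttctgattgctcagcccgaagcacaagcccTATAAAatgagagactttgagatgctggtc
Npy, chr6:49822610-49822709, plus strand: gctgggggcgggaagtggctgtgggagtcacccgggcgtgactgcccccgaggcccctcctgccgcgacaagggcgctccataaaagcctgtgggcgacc
The full element was in the Sst window and in 1.79% of the 32851 promoter windows of 300 bases. The core, which the full element contains, was in 20.8% of windows, and TATAAA was in 13.6%. These matches describe the letters and are not evidence of binding.

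Over whole sections, the genes of GABA synthesis and transport were lower in the sections with the 5xFAD transgenes. The level of Gad1 was 235 CPM for wild-type, 192 for Dp16, 165 for 5xFAD and 159.9 for 5xFAD-Dp16, and values below keep this order of sections. Gad2 was at 100.1, 90.3, 75.7 and 80.4 CPM, and Slc32a1 at 97.3, 105, 75.8 and 76.8 CPM. For each of these genes both sections with plaques lay below both sections without. In 4 neocortical regions, described below, Gad1 was at 259, 218, 216 and 212 CPM, so that order held by a narrow margin between Dp16 and 5xFAD. It did not hold for Gad2 or Slc32a1. The Gad2 level of 5xFAD-Dp16 (65.95 CPM) was no lower than that of wild-type (65.7 CPM), and the Slc32a1 level of 5xFAD (82.2 CPM) was above that of Dp16 (74.7 CPM).

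Pvalb, which encodes the calcium buffer of fast-spiking cells, was at 276, 216, 177 and 178 CPM. Calb1, the calcium buffer calbindin, had no such order, at 166, 132, 160 and 157 CPM. Among the peptides, Sst (somatostatin) was at 585, 619, 419 and 475 CPM. Both sections with plaques were again the low ones for Pvalb and Sst.

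Npy (neuropeptide Y) was at 209, 245, 163 and 224 CPM. Vip (vasoactive intestinal peptide) was at 34.0, 34.7, 31.3 and 44.0 CPM. Crh (corticotropin-releasing hormone) had the fewest UMIs, 198, 118, 99 and 244, or 5.76, 3.82, 3.80 and 6.69 CPM. For these 3 peptides the sections with plaques and those without overlapped.

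**Figure D1:**
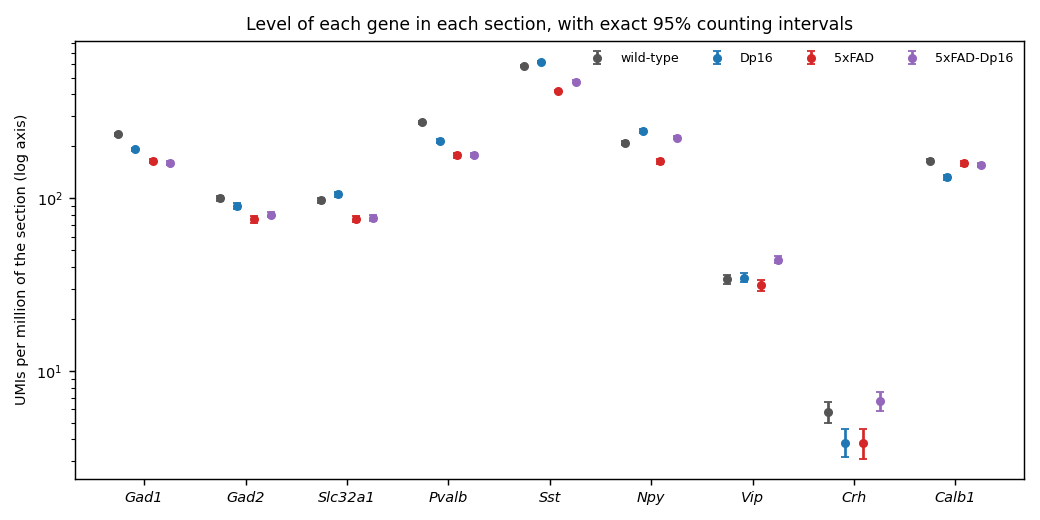
Level of each gene in each of the 4 sections, in CPM on a log axis, with exact 95% counting intervals as bars. Gad1, Gad2, Slc32a1, Pvalb and Sst are lower in both sections with plaques than in both without; Crh, at 3.80 to 6.69 CPM, has the widest intervals.

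In 5xFAD over wild-type, 7 of the 9 genes were lower beyond counting error and none was higher, where 36.6% of all genes were lower and 12.7% higher. In 5xFAD-Dp16 over Dp16, 6 were lower and 3 higher, where 24.1% of all genes were lower and 17.8% higher. The 6 genes lower in both pairs were Gad1, Gad2, Slc32a1, Pvalb, Sst and Npy, where 11.7% of all genes were lower and 4.61% were higher in both pairs. The median log2 ratio of the 9 genes was -0.40 in the first pair against -0.08 over all genes, and -0.17 against -0.03 in the second. A difference of at least 1.5-fold beyond counting error is called here. Lower calls in 5xFAD over wild-type were Pvalb (log2 ratio -0.64, -0.69 to -0.58) and Crh (-0.60, -0.96 to -0.25), where 1.14% of all genes were called lower and 1.92% higher. In 5xFAD-Dp16 over Dp16 the call was Crh, which was higher (0.81, 0.49 to 1.14), where 1.2% of all genes were called higher and 1.02% lower.

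The sections differed in deep tissue rich in Pvalb, part of which was also rich in Gad1. In the wild-type section 43 spots labelled Thalamus and placed in expression cluster 10 held 24.7% of the section's Pvalb UMIs and 18.7% of its Gad1 UMIs. Their levels were 4373 CPM for Pvalb and 2822 CPM for Gad1. Another 447 thalamic spots, of cluster 1, held 22.7% of the Pvalb UMIs, at 376 CPM. In these spots Gad1 was at 16.96, Gad2 at 8.04 and Slc32a1 at 6.12 CPM, each below its level over the whole section. Whether the Pvalb RNA of these spots came from inhibitory neurons was not tested. Over all of Thalamus, Pvalb was at 658 CPM in the wild-type section and at 191, 144 and 118 CPM in the others. The region labelled Hypothalamus had the opposite order for Pvalb, at 90.4 CPM in wild-type against 475, 454 and 278 CPM. This label covered other expression clusters in wild-type, where 212 of its 254 spots were of cluster 15. Clusters 4 and 6 led in Dp16 (146 and 150 spots), 5xFAD (116 and 104) and 5xFAD-Dp16 (218 and 136). Medians over sections and standardised values take the label as 1 region. Without Thalamus and Hypothalamus, the log2 ratio of 5xFAD over wild-type was -0.46 for Gad1 and -0.50 for Pvalb. The remaining regions were not standardised in this step. Cortex RSP, IL, for example, had 149 wild-type and 89 5xFAD spots, and the part of such differences was not tested. In 5xFAD-Dp16 over Dp16 the same step left Gad1 at -0.050, Gad2 at 0.042, Slc32a1 at -0.030 and Pvalb at -0.020, each within counting error of 0, and Sst at -0.41.

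Within 4 neocortical regions (Cortex AUC, Cortex PTL, Cortex RSP, IL and Cortex SSp), standardised to the same share of each region, the Pvalb difference between 5xFAD and wild-type was 0.024 on the log2 scale and that of Slc32a1 was -0.025. Npy turned from -0.36 to 0.14 in this pair. In the second pair Pvalb was at 0.12 and Npy at -0.061. Gad1 was lower in the first pair (-0.26) and at -0.04 in the second. Sst was lower in both, at -0.28 and -0.41. Vip in the second pair was higher in these regions (0.58) than in the whole section (0.34). These regions were chosen after section values had been seen.

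**Figure D2:**
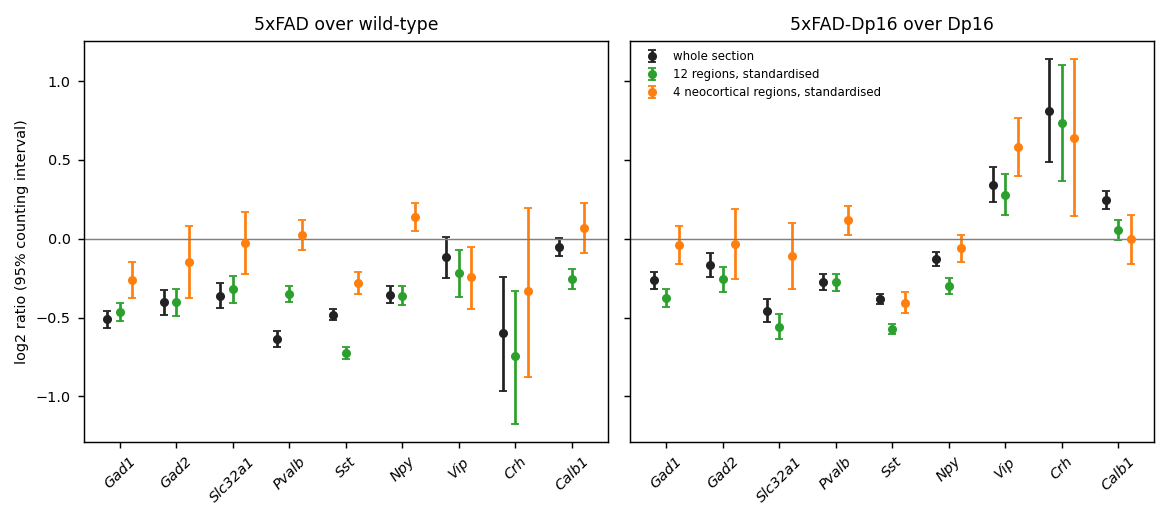
Log2 ratio of each gene in the 2 pairs that differ in the 5xFAD transgenes, for whole sections, for 12 regions standardised, and for 4 neocortical regions standardised, with 95% counting intervals. Sst is below 0 in all 6 values; Pvalb is -0.64 for whole sections and 0.024 in neocortex in 5xFAD over wild-type.

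Sst also differed in how many neocortical spots held it. To set depth aside, the UMIs of each spot were drawn down at random to 5000. Spots with fewer were dropped: 34, 42, 136 and 49 by section. Sst was then found in 78.8% of 581 neocortical spots of the wild-type section (exact binomial interval 75.3 to 82.1) and in 81.5% of 466 in Dp16 (77.7 to 85.0). It was found in 63.4% of 396 spots in 5xFAD (58.4 to 68.1) and in 60.8% of 479 in 5xFAD-Dp16 (56.2 to 65.2). The intervals of both sections with plaques lay below those of both sections without.

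Sst was the single gene among the 9 with intervals apart in both 5xFAD pairs in the neocortex, where 0.0997% of all genes were lower by this rule and 0.263% were higher. In each of the 4 neocortical regions the 5xFAD share was below wild-type and the 5xFAD-Dp16 share below Dp16. Sst levels in CPM were less even. In 5xFAD over wild-type the level was lower beyond counting error in 2 of the 4 regions and higher in 0. In 5xFAD-Dp16 over Dp16 it was lower in 2 and higher in 1. In Cortex PTL the shares were 87.8, 88.1, 62.5 and 67.4% by section, and in Cortex RSP, IL they were 79.1, 79.4, 52.5 and 58.7%. Cortex AUC (74.0, 82.4, 68.9 and 59.2%) and Cortex SSp (73.7, 76.0, 62.4 and 59.3%) had the same order, with overlapping intervals in 3 of their 4 pairs.

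In Thalamus, which had the lowest median level of Sst, the shares were 14.5, 20.8, 13.8 and 19.3%, with no such order. That region is not free of Sst expression: its cluster 1 spots were at 18.2, 19.2, 14.4 and 8.14 CPM, but 43 wild-type spots of cluster 10 were at 1295 CPM. The share that free RNA alone would give was not measured. Standardised over 12 strata of region and expression cluster, the neocortical shares of Sst were 75.9, 81.7, 62.3 and 62.1%. With at least 2 UMIs asked for they were 57.3, 57.7, 38.1 and 38.0%, and without thinning 93.0, 91.3, 67.7 and 77.8%. Median depth before thinning was 12172, 9344, 7372.5 and 10707.5 UMIs per neocortical spot, lowest in 5xFAD, and its part in what thinning leaves was not tested. These shares were chosen for description after 126 shares per section, of 9 genes in 14 areas, had been computed.

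Within the sections with plaques, the Sst share of neocortical spots was alike near plaques and away from them. In 5xFAD it was 62.3% in plaque spots, 63.3% in their neighbours and 63.7% in unmarked spots. In 5xFAD-Dp16 it was 58.7, 60.5 and 61.9%. The intervals were wide, 49.0 to 74.4% and 48.6 to 68.2% for plaque spots, so a difference of that width was not detectable at this number of spots.

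For the other genes the neocortical shares overlapped in at least 1 of the 2 pairs. Gad1 was found in 60.8, 55.2, 51.5 and 49.3% of spots, and the wild-type and 5xFAD intervals were apart by a narrow margin (56.7 to 64.8 and 46.5 to 56.5). Npy was at 63.0, 68.5, 57.6 and 58.2%, with intervals apart in the second pair alone. Pvalb was at 66.1, 67.6, 67.7 and 61.6%, Vip at 21.0, 17.2, 16.7 and 16.5%, and Crh at 6.37, 5.58, 4.55 and 5.43%.

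**Figure D3:**
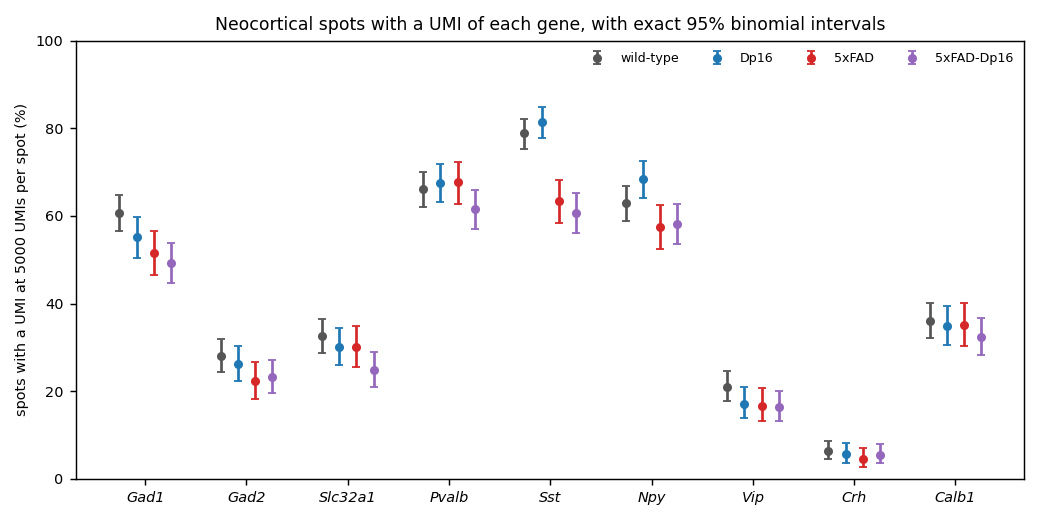
Percent of neocortical spots with a UMI of each gene after thinning to 5000 UMIs per spot, by section, with exact 95% binomial intervals. Sst is at 78.8 and 81.5% in the sections without plaques and at 63.4 and 60.8% in those with plaques; the Pvalb values lie between 61.6 and 67.7%.

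Sst and Npy were the genes that differed the same way in both pairs that differ in the Dp16 segment. Over wild-type, Dp16 was higher beyond counting error for Slc32a1 (0.11), Sst (0.08) and Npy (0.23) and lower for 5 genes, among them Pvalb (-0.35) and Calb1 (-0.33), where 14.3% of all genes were higher and 48.3% lower. Several of these turned with the regions compared. Slc32a1 was at -0.43 without Thalamus and Hypothalamus and -0.16 in the neocortical regions, where Pvalb was at 0.034 and Calb1 at 0.15. Over 5xFAD, 5xFAD-Dp16 was higher for 5 genes and lower for none, with Npy at 0.46, Vip at 0.49 and Sst at 0.18, where 14.9% of all genes were higher and 32.8% lower. Sst and Npy were thus higher in 2 of 2 pairs, where 6.18% of all genes were higher and 22.1% lower in both.

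Crh was called lower in Dp16 over wild-type (-0.59, -0.93 to -0.26), where 3.11% of all genes were called lower and 2.02% higher. It was called higher in 5xFAD-Dp16 over 5xFAD (0.82, 0.47 to 1.17), where 0.625% were called higher and 0.798% lower. The medians of the 9 genes were -0.15 and 0.09, against -0.13 and -0.07 over all genes. None of the 9 had neocortical shares apart in both Dp16 pairs, where 0.127% of all genes were higher and 0.19% lower. A few spots set the Sst and Npy levels: the highest Sst spot of the Dp16 section, in Hippocampus, held 1163 UMIs, or 35.4% of the Sst UMIs of that region. With each spot's count capped at the gene's 99th percentile, the Dp16 over wild-type value was -0.06 for Sst and 0.08 for Npy.

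Peptide transcripts were concentrated in few spots and enzyme transcripts were spread. In the wild-type section 140 spots held 50% of the Sst UMIs and 42 held 50% of the Vip UMIs, against 237 for Gad1 and 241 for Gad2. The variance of Sst counts over spots was 51.1 to 144 times their mean across the sections, against 2.97 to 4.45 times for Gad2. The variance of Pvalb counts was 8.66 to 24.0 times their mean, and that of Gad1 counts 5.54 to 14.6 times. The lowest value of any of the 9 genes was 1.38 times, for Crh in 5xFAD. Counting intervals of all 9 genes therefore leave out a spread between spots that is larger than counting error.

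The regional order separated the genes, and in what follows a level is the median CPM over the 4 sections. Gad2 was highest in Hypothalamus (177 CPM) and CNU (173 CPM), and both regions were above Cortex CTXsp (111 CPM) in the median. CNU lay above Cortex CTXsp in all 4 sections, while the order of Hypothalamus and CNU changed between sections. Slc32a1 had the same first 3 regions, at 186, 175 and 94.1 CPM. Gad1 was flatter, from 288 CPM in Cortex RSP, IL to 176 CPM in Cortex OLF over its first 9 regions, and its leading regions changed order between sections.

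Pvalb was highest in Cortex RSP, IL, at 418, 731, 505 and 850 CPM. That region was above the next, Cortex SSp (400 CPM), in 3 of 4 sections. Calb1 was highest in Cortex OLF (282, 276, 273 and 331 CPM), which was above Cortex CTXsp (222 CPM) in all 4 sections, and Cortex CTXsp was above Cortex AUC (165 CPM) in all 4. In the wild-type section the highest region was another one for both genes, Thalamus for Pvalb and Hypothalamus for Calb1 (290.0 CPM).

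Sst was highest in Cortex CTXsp (1498, 804, 488 and 1115 CPM) and had its lowest median in Thalamus (127, 82.5, 91.4 and 99.8 CPM). Its 6 leading regions, all cortical, did not keep their order. Npy was highest in Cortex SSp (483, 591, 362 and 520 CPM), and its 4 neocortical regions came first. Npy was lowest in Thalamus and Hypothalamus, at 41.5 and 41.1 CPM.

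Vip and Crh were cortical. Vip was at 119 CPM in Cortex PTL and 103 CPM in Cortex RSP, IL, and at 1.11 CPM in Hypothalamus and 0.61 CPM in Thalamus. Crh was at 18.3 CPM in Cortex SSp and 16.7 CPM in Cortex PTL. In Hypothalamus, where Crh neurons of the stress axis lie, Crh had 23 UMIs in the wild-type section and 3, 1 and 19 in the others, or 6.19, 0.69, 0.30 and 3.25 CPM.

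**Figure D4:**
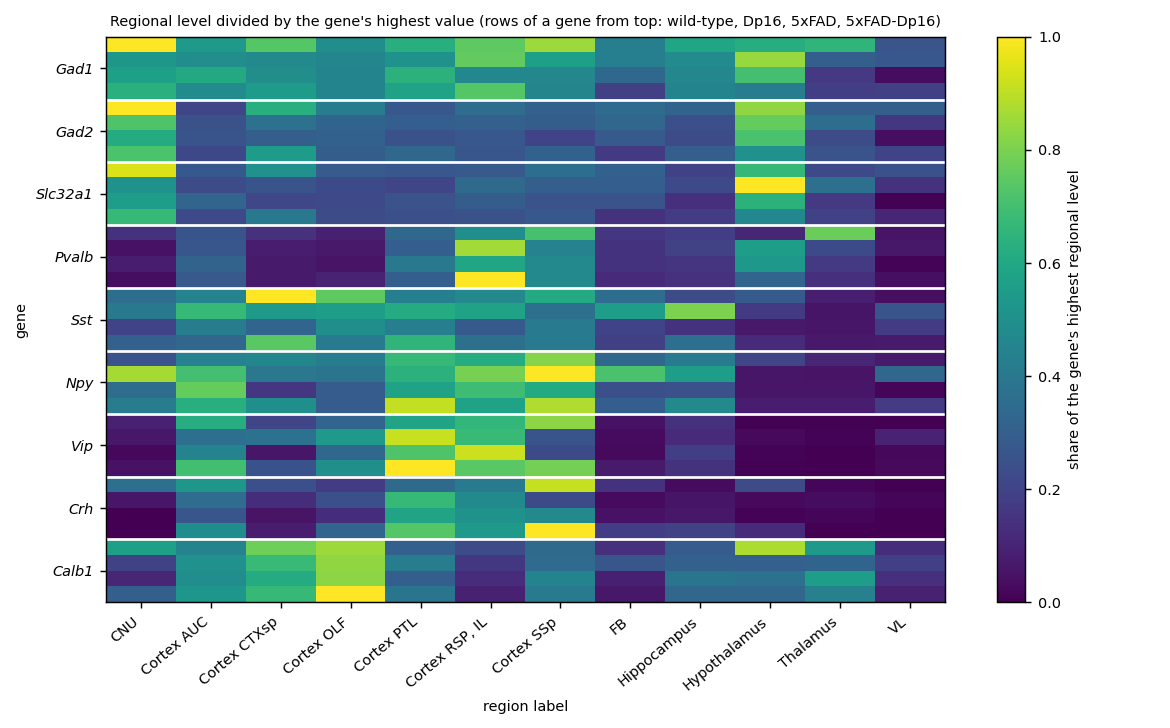
Level of each gene in 12 regions (columns) and 4 sections (rows within a gene), divided by the gene's highest regional level. Gad2 and Slc32a1 are high in CNU and Hypothalamus, Vip and Crh in cortical regions, Calb1 in Cortex OLF, and Pvalb in Cortex RSP, IL and, in the wild-type section, Thalamus.

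Genes with the most similar regional pattern were found by Spearman correlation over 48 points, 12 regions in 4 sections, which share libraries and depth, so the values are descriptions. Pvalb was most like Kcnab3 (0.94), Hapln4 (0.91) and Rph3a (0.89), and Sst most like Crhbp (0.82), Pde1a (0.81) and Ccn3 (0.80). Vip was most like Ephx4 (0.91), 1110008P14Rik (0.90) and Lamp5 (0.90). Crh was most like Acta1 (0.88), Vip (0.87) and Lamp5 (0.86).

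Gad2 and Slc32a1 were each other's closest gene (0.76), followed for Gad2 by Sox1 (0.72) and Gabrg1 (0.70) and for Slc32a1 by Gm14204 (0.75) and Sv2c (0.73). Npy was most like Ephx4 (0.84), Lmo4 (0.83) and 3110039M20Rik (0.82), and Calb1 most like Cdh4 (0.84), Astn1 (0.80) and Tro (0.79). Gad1 had the weakest matches, Vstm5 (0.69), Ier5l (0.67) and Unc79 (0.66).

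Within neocortical spots some genes were found together. The ratio compares the share of spots with the second gene between spots with and without the first, within region, and 1 means no link. Over 4 sections and 2 random thinnings, 12 of 36 pairs stayed above 1 and 0 stayed below 1. Vip and Crh had the highest median (3.91, range 1.40 to 6.10), from 6 to 18 spots with both. Gad1 with Slc32a1 was at 1.89 (1.42 to 2.04) and Gad1 with Gad2 at 1.72 (1.15 to 2.34). Pvalb with Sst was at 1.00 (0.95 to 1.21) and Pvalb with Vip at 0.90 (0.74 to 1.15), both spanning 1.

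Plaque spots were compared with unmarked spots, which are neither plaque spots nor their neighbours, within the same regions and section. Pvalb was higher in plaque spots in both sections. In 5xFAD it was at 308 CPM in 310 plaque spots and 197 CPM in 1234 unmarked spots (log2 ratio 0.64, 0.52 to 0.76). In 5xFAD-Dp16 it was at 315 CPM in 380 plaque spots and 183 CPM in 1556 unmarked spots (0.78, 0.67 to 0.90).

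Pvalb was the single gene of the 9 called higher in both sections, where 1.07% of all genes were called higher and 0.761% lower in both. By section, 2% of all genes were called higher and 3.12% lower in 5xFAD, and 2.22% higher and 2.75% lower in 5xFAD-Dp16. The other calls were Vip (-0.69, -0.98 to -0.40) and Crh (-1.24, -2.13 to -0.41), both lower in 5xFAD-Dp16, Crh from 18 plaque UMIs. Matched by cluster too, Vip was at -0.57 and Crh at -0.43 (-1.71 to 0.85), neither past 1.5-fold. In 5xFAD their values were -0.16 and 0.42, with intervals across 0.

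By region, Pvalb was higher in plaque spots beyond counting error in 4 of 10 regions of 5xFAD and 6 of 11 of 5xFAD-Dp16, and lower in 1 of the latter, FB. Thalamus (1.44 and 1.99), Hypothalamus (1.04 and 1.28) and Hippocampus (1.46 and 1.35) were higher in both sections. In 5xFAD-Dp16 so were Cortex CTXsp (1.71), Cortex RSP, IL (1.23) and Cortex AUC (1.05), which were within counting error of 0 in 5xFAD. In Thalamus, after thinning, Pvalb was found in 56.2% of plaque spots and 33.9% of unmarked spots of the 5xFAD section, and in 55.9 and 22.8% in 5xFAD-Dp16. In Hypothalamus the shares were 73.4 and 47.2%, and 71.2 and 31.2%. In neocortex they were 57.4 and 67.9%, and 64.4 and 57.4%, with overlapping intervals. With at least 2 UMIs asked for, the neocortical shares of 5xFAD-Dp16 were 44.2% (34.5 to 54.3) and 25.6% (19.97 to 31.8), with intervals apart, and those of 5xFAD 32.8 and 36.7%. By the share with a UMI after thinning, spots beside plaques were between the others in Thalamus (49.6 and 51.7%) and Hypothalamus (67.9 and 66.3%). In neocortex they were above both (72.5 and 65.8%), with overlapping intervals. Over the matched regions, Pvalb in spots beside plaques over unmarked spots was at 0.43 (0.32 to 0.54) in 5xFAD. In 5xFAD-Dp16 it was at 0.73 (0.63 to 0.84). The values of plaque spots, over a smaller set of regions, were 0.64 and 0.78.

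Matching by expression cluster as well as region left Pvalb at 0.51 (0.36 to 0.67) in 5xFAD and lowered it to 0.22 (0.09 to 0.35) in 5xFAD-Dp16, below 1.5-fold in both. Whether plaque spots lie in other parts of a region than unmarked spots was not tested beyond this. Of 6 measured genes of fast-spiking cells, 3 were higher beyond counting error in 5xFAD plaque spots and 4 in 5xFAD-Dp16, with median log2 ratios of 0.33 and 0.42. Of all genes 7.06% were higher and 7.79% lower by this rule in 5xFAD, and 10.4% higher and 7.91% lower in 5xFAD-Dp16. The 5 microglia genes had medians of 0.95 and 0.91 in the same spots.

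Sst had no steady relation to plaques. Its matched log2 ratio was -0.01 in 5xFAD and 0.52 in 5xFAD-Dp16, where 1 plaque spot held 15.0% of the plaque Sst UMIs. In Thalamus it was lower in plaque spots in both sections (-3.52 and -2.30) and in Hypothalamus likewise (-1.51 and -2.04), while in Hippocampus it was higher in both (2.88 and 1.66, from 13 and 49 plaque spots). The 5xFAD value came from few spots. After thinning, 10% of 10 hippocampal plaque spots of 5xFAD had at least 2 Sst UMIs, against 13.6% of unmarked spots. In 5xFAD-Dp16 these shares were 32.6 and 14.0%. Over regions with at least 30 spots of each kind alone, the 5xFAD values moved to -0.85 for Sst, 0.94 for Npy and 1.03 for Vip, and the Sst value of 5xFAD-Dp16 to 0.88. Calb1 was lower in plaque spots in both sections (-0.20 and -0.53), though at 0.06 in 5xFAD when matched by cluster too. By region it was lower beyond counting error in 4 of 10 regions of 5xFAD and 6 of 11 of 5xFAD-Dp16, and higher in 1 of each. In neocortex, after thinning, Calb1 was found in 14.8% of plaque spots, 16.7% of their neighbours and 51.2% of unmarked spots of 5xFAD. In 5xFAD-Dp16 these shares were 19.2, 18.4 and 47.98%. The plaque and unmarked intervals were apart in both sections. Matched by region, Npy was higher in plaque spots (0.20 and 0.34), but single regions differed in direction. Npy was higher beyond counting error in 4 of 10 regions of 5xFAD and 7 of 11 of 5xFAD-Dp16, and lower in 3 and 4. After thinning, Npy was found in 45.9% of neocortical plaque spots and 61.9% of unmarked spots of 5xFAD. The shares were 53.8 and 64.1% in 5xFAD-Dp16, and the intervals overlapped in both sections. In 5xFAD-Dp16 Npy was at 0.072 (-0.087 to 0.23) when matched by cluster and at -0.11 over the regions of at least 30 spots. The genes of GABA synthesis and transport were at -0.20 to 0.22 when matched by region, with Gad1 (0.18) and Slc32a1 (0.22) of 5xFAD-Dp16 beyond counting error. Single regions differed more. In Hypothalamus of 5xFAD-Dp16, Gad1, Gad2 and Slc32a1 were at 1.07, 1.32 and 1.49, against 0.06, -0.22 and 0.40 in 5xFAD. In Hippocampus they were at 0.93, 0.29 and 0.91 in 5xFAD-Dp16 and 0.43, 1.34 and 1.37 in 5xFAD. In Cortex CTXsp of 5xFAD-Dp16 all were lower, at -0.68, -0.49 and -0.88. In Thalamus of 5xFAD-Dp16, where Pvalb was at 1.99, they were at -1.01, -0.24 and -1.20, with Gad1 and Slc32a1 beyond counting error. In Thalamus of 5xFAD they were at 0.37, -0.16 and -0.08, each within counting error of 0. Matched by cluster too, Slc32a1 was at 0.40 (0.17 to 0.64) and Gad2 at 0.29 (0.06 to 0.53) in 5xFAD-Dp16, and over its regions of at least 30 spots Slc32a1 was at 0.50, Gad1 at 0.42 and Gad2 at 0.35. The medians of the 9 genes were 0.00 and 0.18, against -0.02 and 0.01 over all genes.

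**Figure D5:**
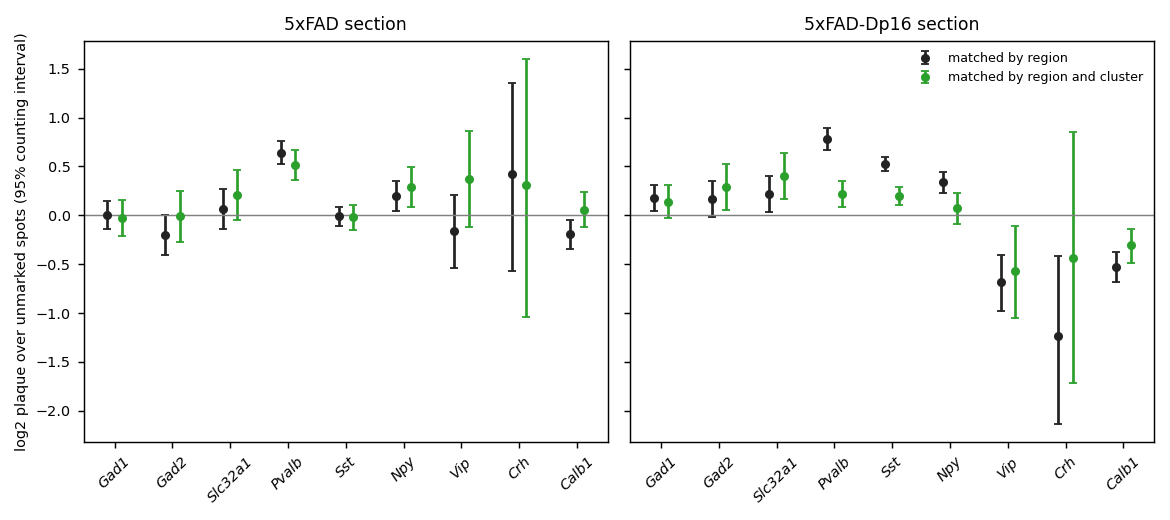
Log2 ratio of plaque over unmarked spots for each gene in the 2 sections with plaques, matched by region or by region and expression cluster, with 95% counting intervals. Pvalb is above 0 in all 4 values, from 0.22 to 0.78.

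Lists of genes linked to inhibitory neurons were also read, leaving out the 9. Whether RNA of the listed genes came from inhibitory neurons was not tested. The list counts stand against the 36.6 and 24.1% of all genes that were lower in the same pairs, and the 12.7 and 17.8% that were higher. All 5 genes of GABA handling were lower beyond counting error in 5xFAD over wild-type and 3 were in 5xFAD-Dp16 over Dp16, with medians of -0.25 and -0.10 and no call. Abat, which breaks GABA down, was at -0.22 and -0.11. Of 13 measured interneuron transcription factors, 7 and 4 were lower and 1 and 2 higher, with medians of -0.35 and -0.14; Nr2f2 was at -0.38 and -0.31, and Satb1 at -0.35 and 0.16.

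Of 16 other interneuron subtype genes, 7 and 3 were lower and 6 and 7 higher, with medians of -0.05 and 0.02. Cck, which encodes the peptide cholecystokinin, was at -0.07 and 0.36. Penk, an enkephalin precursor that striatal neurons also make, was at -0.72 and 0.64. Of 6 fast-spiking cell genes, 4 were lower in each pair; Kcnc1, a fast potassium channel, was at -0.30 and -0.29, and Cplx1 at -0.37 and -0.18.

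Of 4 measured peptide receptor genes, 2 and 1 were lower and 0 and 1 higher; Npy1r was at -0.07 and 0.04, and Npy2r at -0.25 and -0.40. Lists of other cells were lower in the first pair as well. Lower beyond counting error were 5 of 6 pan-neuronal, 5 of 8 excitatory, 5 of 5 oligodendrocyte and 3 of 5 astrocyte genes, with medians of -0.21, -0.19, -0.26 and -0.25. In the second pair these counts were 3, 4, 1 and 1, with medians of -0.036, -0.083, 0.076 and 0.0086.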

How the data were processed

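The deposited matrix holds raw UMI counts of 19090 genes in 10549 spots, and the authors also deposited, for every spot, the mitochondrial share in percent. Per the submitters' processing notes, Space Ranger, Seurat and mm10 were used; versions and the making of region labels, clusters and plaque marks are not given in the sources used here. Members and gene lists were chosen with earlier results of these data known. No doublet caller was run and every spot was kept, and 2879 of 3164 barcodes occur in more than 1 section, as fixed array positions do.

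Counts were summed per section, region and plaque mark and scaled to CPM. Summed counts have exact Poisson intervals, ratios exact conditional binomial intervals and shares exact binomial (Clopper-Pearson) intervals, which take spots as independent. A count of 0 takes a floor of 3 counts, and regional ratios with such a count were left out. Standardised levels and matched plaque levels weight regional CPM, with intervals from the effective count. Regions needed 30 spots in every section (12 regions), and plaque regions 10 spots of each kind. The intervals of plain section ratios were tested on simulated Poisson counts, for the pairs that differ in the Dp16 segment. Such counts lack the spread between spots seen here, so the simulation cannot show how the intervals hold under it. Intervals from the effective count were not simulated. The rule for named genes was the 9 members, the 3 genes of most similar regional pattern for each, and from each list the 2 of highest mean CPM and any called the same way in both pairs of an effect; lists of other cells are given as sums or medians, and 1 gene the rule names is not reported here. Alternatives were other scalings (TMM from edgeR 4.0.16), spot filters, regions left out, standardising, thresholds and plaque matching. Tools were Python 3.11.15, numpy 2.4.6, scipy 1.17.1, pandas 2.3.3, matplotlib 3.10.9 and R 4.3.3.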

Additional observations from a re-analysis of the deposited data

Results flagged for a closer look

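Gad2 and Crh moved in opposite directions in the 2 pairs that share a contrast, each beyond counting error. Gad2 was at -0.15 in Dp16 over wild-type and 0.087 in 5xFAD-Dp16 over 5xFAD. Crh was at -0.59 and 0.82 in the same pairs. In the pairs that differ in the 5xFAD transgenes, Crh was at -0.60 in 5xFAD over wild-type and 0.81 in 5xFAD-Dp16 over Dp16. The difference between pairs was not tested over animals, since each genotype had 1 section. The double difference was 1.41 for Crh (counting interval 0.94 to 1.88) and 0.23 for Gad2 (0.13 to 0.34). With regions standardised, Gad2 in 5xFAD-Dp16 over 5xFAD was at -0.015, so that it no longer moved in opposite directions, and its double difference was 0.14 (0.026 to 0.26).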

How the results depend on the processing

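The median log2 ratio of the 9 genes moved as follows. For Dp16 over wild-type it was -0.064 with TMM factors and 0.034 in 4 neocortical regions. For 5xFAD-Dp16 over 5xFAD it was -0.015 region-standardised, 0.22 without Hypothalamus and 0.24 without Thalamus and Hypothalamus. For 5xFAD over wild-type it was -0.14 in the neocortical regions. For 5xFAD-Dp16 over Dp16 it was -0.28 region-standardised, -0.27 as a mean over spots, -0.020 without Thalamus and Hypothalamus, -0.032 in the neocortical regions and -0.38 in unmarked spots. Pvalb in 5xFAD over wild-type turned to 0.024 in the neocortical regions, and Npy, at -0.36 over whole sections, to 0.14. With a lower fold threshold the counts of called genes were 3 lower in Dp16 over wild-type, 3 higher in 5xFAD-Dp16 over 5xFAD, 7 lower in 5xFAD over wild-type, and 2 higher and 2 lower in 5xFAD-Dp16 over Dp16; at 2-fold each was 0. The lower call in Dp16 over wild-type, Crh, was kept when spots under 1000 UMIs were left out. Without Hypothalamus Crh was at -0.40 and Pvalb was called in its place (-0.79), and under every other setting run the count was 0. The higher call in 5xFAD-Dp16 over 5xFAD, Crh, ended as a mean over spots and with capped counts (0 each). Of the lower calls in 5xFAD over wild-type, Crh ended and Pvalb was the 1 left with TMM factors, with a total lacking mitochondrial, ribosomal protein and haemoglobin genes, without clusters 12, 13 and 21 and without the spots of highest UMIs. None was left (0) as a mean over spots, without Thalamus and Hypothalamus, in the neocortical regions and with capped counts. Region-standardised, Crh and Sst (-0.73) were called and Pvalb (-0.35) was not. Without Hypothalamus, Pvalb and Gad1 (-0.65) were called and Crh (-0.40) was not, and in unmarked spots Pvalb, Crh and Sst were called. In unmarked spots 2 genes, Pvalb and Sst, were called lower in 5xFAD-Dp16 over Dp16. Neocortical, unmarked, capped, highest-spot and cluster-matched settings, and the removal of Thalamus, were chosen after seeing the data. A second random thinning gave neocortical Sst shares of 80.9, 81.5, 62.9 and 62.0%. No paired analysis was possible because each genotype had 1 section.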
